A study of Rattus norvegicus with 12 samples.

Results

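A set of 6 genes of the transcription machinery were followed through the left ventricle of the rat heart: Polr1h, Ubtf, Taf4b, Ing3, Setd1a and Mterf1. All probe sets of the deposited value table whose single gene symbol was 1 of these 6 names were taken, which gave 12 probe sets out of 31042 that were not controls, or 6 genes out of 14217 with a symbol. The genes had been selected on small p-values of the active groups against the sedentary group, so their differences from that group are given below as a description, with no test.

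The hearts came from female Sprague-Dawley rats aged 16 months, a wild-type outbred stock with no transgene, and all groups shared this strain, sex and age. The EX rats had access to voluntary exercise through life, the PA rats were given 1 h of physical activity in a large box at each of 2 sessions per week, and the SED rats stayed in a standard cage. Each group had 4 Affymetrix Rat Genome 230 2.0 arrays, where a set of short probes matching one transcript yields a single log2 signal. Each array was hybridised with RNA pooled from 4 animals according to the design text, which counts 12 animals per group. That number would fill 3 arrays, so which animals stand behind which array was not settled, and every SD and p below measures the spread between pooled arrays, which may be partly technical.

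RNA polymerase I makes the large ribosomal RNA precursor and depends on UBTF to hold the ribosomal DNA in an open state. RNA polymerase II starts at messenger RNA promoters through TFIID, a complex of the TATA-binding protein and its associated factors, on chromatin that carries acetylated histones and methylated lysine 4 of histone H3. Mitochondria copy their small circular genome with a separate single-subunit polymerase and nuclear-encoded factors, and the heart, which works almost entirely on oxidative metabolism, is rich in them.

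In 4 of the genes, Taf4b, Ing3, Polr1h and Mterf1, a single probe set passed the filter on dim signals, and in each of them both active groups lay above SED. The upstream sequences of these 4 genes are shown because they hold a short motif in common, which was picked out after reading them. The window of Ubtf, whose probe set 1371187_a_at had the largest difference from SED, lacks it. Each is the 250 bases before the first RefSeq transcription start on the GRCr8 assembly, read 5′ to 3′ on the plus strand: Taf4b at chr18:6227128-6227377, Ing3 at chr4:51443561-51443810, Polr1h at chr20:1599920-1600169 and Mterf1 at chr4:31180882-31181131. Capitals mark matches, on either strand, to the motifs listed after the sequences.
Taf4b: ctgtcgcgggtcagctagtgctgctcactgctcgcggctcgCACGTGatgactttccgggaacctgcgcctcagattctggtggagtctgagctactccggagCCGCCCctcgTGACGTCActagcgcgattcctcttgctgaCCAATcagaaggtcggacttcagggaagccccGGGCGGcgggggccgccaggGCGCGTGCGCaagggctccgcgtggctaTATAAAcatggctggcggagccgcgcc
Ing3: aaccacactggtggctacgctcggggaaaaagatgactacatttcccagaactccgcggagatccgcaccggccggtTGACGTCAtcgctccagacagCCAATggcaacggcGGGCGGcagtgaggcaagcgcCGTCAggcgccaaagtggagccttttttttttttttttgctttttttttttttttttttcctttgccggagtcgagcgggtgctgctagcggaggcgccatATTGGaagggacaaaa
Polr1h: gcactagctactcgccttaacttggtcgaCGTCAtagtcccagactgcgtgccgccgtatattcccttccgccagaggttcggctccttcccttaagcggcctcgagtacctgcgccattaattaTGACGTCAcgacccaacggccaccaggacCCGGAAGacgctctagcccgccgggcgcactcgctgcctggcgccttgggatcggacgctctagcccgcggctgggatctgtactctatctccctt
Mterf1: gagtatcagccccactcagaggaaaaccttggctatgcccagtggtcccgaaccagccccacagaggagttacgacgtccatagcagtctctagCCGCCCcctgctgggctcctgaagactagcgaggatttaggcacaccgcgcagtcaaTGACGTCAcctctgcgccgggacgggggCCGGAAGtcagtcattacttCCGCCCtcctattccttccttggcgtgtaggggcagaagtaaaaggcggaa
The motifs searched were the TATA box TATAAA, the CCAAT box CCAAT, the GC box GGGCGG, the ETS core CCGGAAG, the E-box CACGTG, the YY1 core ATGGCGG, the core TGACG of the cyclic AMP response element, and the NRF1 core. The TGACG core occurred in the windows of all 6 genes, against 18.2% of the 33469 RefSeq promoter windows of the same length. In the 4 printed windows, pairs of overlapping cores on opposite strands form the whole palindrome TGACGTCA, with its first base at position -137 from the start in Taf4b, -173 in Ing3, -125 in Polr1h and -99 in Mterf1. The palindrome was searched for after these sequences had been read. It was found in 1.59% of all windows, in 2.82% of the 9569 windows of genes measured above the filter, and in 3.65% of the 5369 of those with at least 15 CpG dinucleotides. The windows of Setd1a and Ubtf and a second RefSeq start of Polr1h did not contain it. Since the palindrome was picked from these windows, and the genes on their differences from SED, nothing is read from those shares.

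The windows had few other motifs in common. The GC box matched in 5 of the 6 genes, with 7 matches in Ubtf, 2 each in Taf4b and Mterf1, 1 each in Ing3 and Setd1a, and none in Polr1h, against 30.5% of all windows. CCAAT matched in Taf4b, Ing3 and Setd1a (34.0% of all windows), and the ETS core in Polr1h and Mterf1 (7.3%). Taf4b alone among the 6 held a TATA box (12.9% of all windows), an E-box (5.6%) and the NRF1 core (3.8%), and none held the YY1 core (2.5%). All 6 windows were rich in CpG, from 15 in Mterf1 to 35 in Ubtf, where the median window had 5.0. The TGACG core and the GC box themselves contain CpG. Their shares come from windows of any CpG content, so they are not a matched base for these 6. A match is a run of letters and was not tested as a binding site.

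Across the whole table no probe set passed limma's adjusted p of 0.05 over 18626 tested. The share called was 0.0% for EX against SED, for PA against SED, for EX against PA and for the moderated F test over the 3 groups. At an unadjusted p under 0.05, over the 10244 genes tested, EX was higher than SED in 714 (6.97%) and lower in 610 (5.95%), PA was higher than SED in 751 (7.33%) and lower in 527 (5.14%), and EX was higher than PA in 96 (0.937%) and lower in 163 (1.59%). Of the 12 probe sets of the 6 genes, 10 passed the filter, a mean log2 value of at least 4.94 over the 12 arrays. Among those 10, all 4 EX arrays lay above all 4 SED arrays in 5, against 4.39% of all tested probe sets, and below them in 1, against 3.51%. The 4 PA arrays lay above SED in 5, against 4.88%, and below in 2, against 3.51%. Since the genes were chosen on these contrasts, nothing is read from those shares. EX and PA overlapped in all 10 probe sets, while EX lay fully above PA in 1.33% and fully below in 1.45% of all tested probe sets.

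Some properties of the SED arrays move with these contrasts, and the EX arrays were uneven in their atrial markers. These features are stated here before the values. SED 1 correlated less with the remaining arrays (0.964 on average, against 0.987 to 0.989 for each of those), and its Gapdh controls for RNA integrity had a 3′ signal 1.56 log2 units over the 5′ signal, against 0.96 to 1.35. The 5S ribosomal RNA signal of SED 1 was 7.72, against 5.15 to 6.74 on the other arrays. The interquartile range of the log2 values was 3.58 to 3.86 in SED and 3.89 to 4.04 in EX and PA. Of 10 cardiomyocyte markers, 9 were on the array, with gene means from 12.32 (Ckm) to 13.15 (Myh6). Their mean level, relative to the mean over all arrays, ran from -0.04 to 0.05. Whether signals this bright would show a difference in content was not tested. The 11 leukocyte markers, with gene means from 6.10 (C1qb) to 11.86 (Cd74), ran relatively from -0.17 to -0.04 in EX, from -0.14 to 0.22 in PA and from -0.41 (SED 1) to 0.69 (SED 3) in SED. The 4 measured of 5 blood markers had their lowest value in SED 1 (-1.12) and their highest in SED 3 (1.31). The endothelial markers were highest in SED 1 (0.37), as were the dim nerve markers. The 4 measured of 5 atrial markers differed widely within EX, with 0.83, -0.92, 1.25 and -1.02 in EX 1 to EX 4. They ran from -0.34 to 0.20 in PA and from -0.34 to 0.31 in SED. In tissue RNA, fewer cells of a type and less RNA per cell cannot be told apart. The part of these features in the differences was not tested, and the differences of the tested probe sets of the 6 genes are given also without SED 1 and without both SED 1 and SED 3. For the other genes named, the value without SED 1 is given where it differs by 1.5 times or more.

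Polr1h encodes a small zinc-binding subunit of RNA polymerase I that takes part in cleaving the transcript when the enzyme stalls. Its probe set, 1388590_at, read 7.50, 7.44, 7.40 and 7.64 on the EX arrays, 7.47, 7.20, 7.01 and 7.11 on the PA arrays, and 6.92, 6.93, 6.90 and 6.82 on the SED arrays. The SED arrays lay close together and under every active array, and the groups were ordered EX, PA, SED by their means, 7.50 ± 0.11, 7.20 ± 0.20 and 6.89 ± 0.05 (SD, n = 4 each). PA 1 lay among the EX arrays, and the other 3 PA arrays lay below all of EX.

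The level of Polr1h was 0.60 ± 0.11 (SE of the limma fit) higher on the log2 scale in EX than in SED, a fold of 1.52, and 0.30 ± 0.11 higher in PA, a fold of 1.24. Both differences use the same 4 SED arrays. Without SED 1 they were 0.61 and 0.31, and without SED 1 and SED 3 they were 0.62 and 0.32. After quantile normalization, which forces one distribution on all arrays, they were 0.48 and 0.19. EX exceeded PA by 0.30, with a 95% interval from 0.07 to 0.53 and an adjusted limma p of 1.00 over all probe sets. That contrast did not choose the genes, but its arrays did enter the choice, and this holds for each EX against PA value below.

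Ubtf encodes the upstream binding factor, an HMG-box protein that coats the active ribosomal DNA repeats and helps to load RNA polymerase I. It had 4 probe sets, and they did not show the same picture. The probe set 1371187_a_at, where the suffix marks probes shared by alternative transcripts of one gene, read 6.07, 6.54, 6.28 and 6.17 in EX, 6.21, 6.46, 6.45 and 6.38 in PA, and 5.34, 5.87, 5.63 and 5.20 in SED. All 8 active arrays lay above all 4 SED arrays, and EX and PA overlapped.

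With 1371187_a_at, Ubtf was 0.76 ± 0.15 (SE) higher in EX than in SED on the log2 scale, a fold of 1.69, and 0.86 ± 0.15 higher in PA, a fold of 1.82. These were the largest differences among the 12 probe sets. They were 0.70 and 0.81 without SED 1, and 0.73 and 0.84 without SED 1 and SED 3. Quantile normalization gave 0.75 and 0.86. EX and PA differed by -0.11 (95% interval -0.44 to 0.22, limma, adjusted p = 1.00).

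The probe set with the highest mean for Ubtf, 1374498_at, read 8.88, 8.60, 8.72 and 8.34 in EX, 8.53, 8.58, 8.54 and 8.55 in PA, and 8.41, 8.21, 8.80 and 8.58 in SED. The 4 PA arrays fell within 0.05 of each other, inside the range of both other groups. The differences from SED were 0.14 ± 0.14 (SE) for EX and 0.05 ± 0.14 for PA, and the PA difference was -0.05 after quantile normalization. They were 0.10 and 0.02 without SED 1, and 0.24 and 0.15 without SED 1 and SED 3. The interval for EX minus PA, 0.09, ran from -0.22 to 0.39 (limma, adjusted p = 1.00).

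The remaining Ubtf probe sets had active means under the SED mean. The probe set 1389830_at read 6.69, 6.63, 6.69 and 6.34 in EX, 6.31, 6.49, 6.53 and 6.41 in PA, and 6.88, 6.67, 6.52 and 6.50 in SED. Its means were 6.59 ± 0.17 in EX, 6.44 ± 0.10 in PA and 6.64 ± 0.18 in SED, with overlapping arrays and differences from SED of -0.06 ± 0.11 and -0.21 ± 0.11. These were 0.02 and -0.13 without SED 1, and 0.00 and -0.15 without SED 1 and SED 3. Quantile normalization gave -0.16 and -0.31. EX minus PA was 0.15 (95% interval -0.10 to 0.40; limma, adjusted p = 1.00). The fourth, 1371188_a_at, had a mean of 4.77, under the filter, and was not tested. It read 5.01, 4.61, 4.72 and 4.66 in EX, 4.58, 4.57, 4.96 and 4.62 in PA, and 5.0, 4.74, 4.88 and 4.85 in SED, with overlap of all groups, and averaged 4.75 ± 0.18 in EX, 4.68 ± 0.19 in PA and 4.87 ± 0.11 in SED. Over the 4 probe sets of Ubtf the EX difference thus ran from -0.12 to 0.76 and the PA difference from -0.21 to 0.86.

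**Figure D1:**
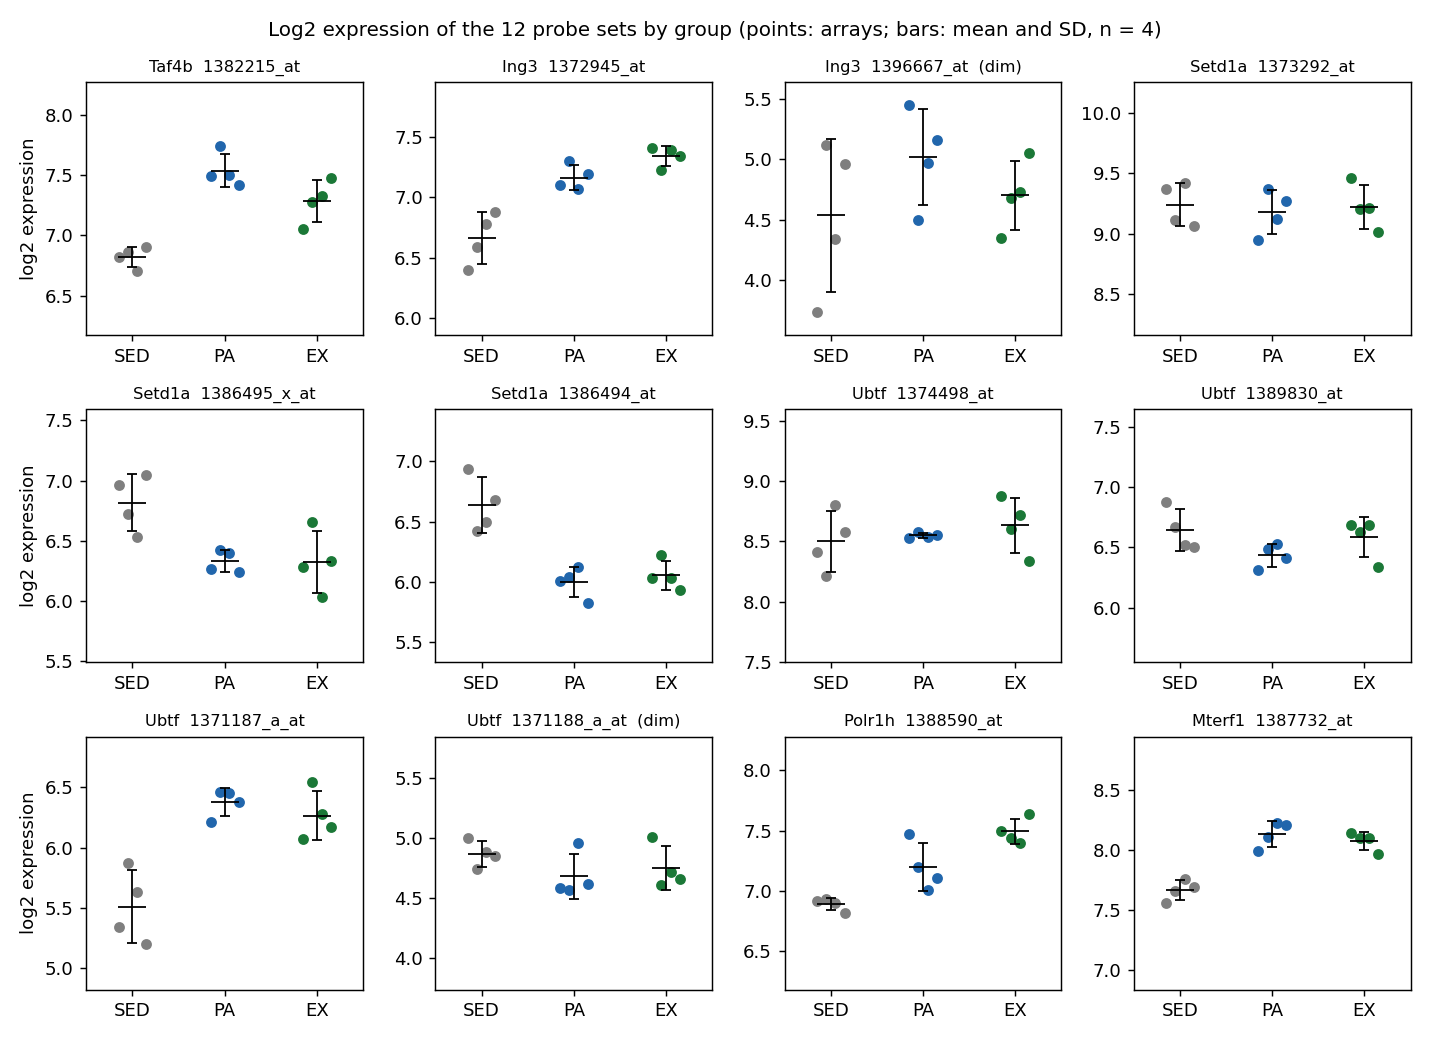
Log2 expression (vertical axis) of the 12 probe sets of the 6 genes in the SED, PA and EX groups (horizontal axis), each panel 2.1 log2 units high, with a point per array, a bar at the mean and whiskers of 1 SD (n = 4); "dim" marks probe sets under the filter. The active arrays stand clear above SED in Taf4b, Polr1h, Mterf1, Ing3 1372945_at and Ubtf 1371187_a_at, clear below in Setd1a 1386494_at, and mixed with SED in Setd1a 1373292_at and the other Ubtf panels.

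Taf4b encodes a cell-type-restricted variant of the TFIID subunit TAF4, best known from the ovary, testis and B cells. Its probe set 1382215_at read 7.05, 7.28, 7.33 and 7.48 in EX, 7.49, 7.74, 7.50 and 7.42 in PA, and 6.82, 6.86, 6.70 and 6.90 in SED. The SED arrays spanned 0.2 log2 units and lay under every active array. The order of the means was PA (7.54 ± 0.14), EX (7.29 ± 0.18) and SED (6.82 ± 0.09), and EX 4 alone reached into the PA range.

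Taf4b was 0.47 ± 0.11 (SE) higher in EX than in SED, a fold of 1.38, and 0.72 ± 0.11 higher in PA, a fold of 1.64. Without SED 1 the differences stayed at 0.47 and 0.72, without SED 1 and SED 3 they were 0.41 and 0.66, and after quantile normalization they were 0.35 and 0.60. EX lay 0.25 under PA (EX minus PA -0.25, 95% interval -0.49 to -0.01), with an adjusted limma p of 1.00. In Polr1h the order of EX and PA was the opposite, and neither contrast passed the test.

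Ing3 encodes a PHD-finger protein of the NuA4/TIP60 histone acetyltransferase complex that binds histone H3 methylated at lysine 4. Its brighter probe set, 1372945_at, read 7.41, 7.23, 7.39 and 7.34 in EX, 7.10, 7.30, 7.07 and 7.19 in PA, and 6.40, 6.59, 6.78 and 6.88 in SED. Here the SED arrays were spread over 0.48 log2 units, with SED 1 the lowest, and all were under the 8 active arrays. The means were 7.34 ± 0.08 in EX, 7.17 ± 0.10 in PA and 6.66 ± 0.21 in SED, with PA 2 inside the EX range.

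The Ing3 difference from SED was 0.68 ± 0.11 (SE) in EX, a fold of 1.60, and 0.50 ± 0.11 in PA, a fold of 1.42. Without SED 1 it was 0.59 and 0.41, without SED 1 and SED 3 it was 0.61 and 0.43, and after quantile normalization 0.57 and 0.39. EX and PA differed by 0.18 (95% interval -0.07 to 0.42, limma, adjusted p = 1.00). The second Ing3 probe set, 1396667_at, had a mean of 4.75, under the filter, and read 4.35, 4.68, 4.73 and 5.05 in EX, 5.45, 4.50, 4.97 and 5.16 in PA, and 3.73, 5.12, 4.34 and 4.96 in SED. Its groups overlapped throughout and SED 1 was again the lowest array.

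Setd1a encodes the catalytic subunit of a complex that methylates lysine 4 of histone H3 at promoters, and it was the member whose shifted probe sets were lower in the active groups. In 1386494_at the EX arrays read 6.03, 6.22, 6.03 and 5.93, the PA arrays 6.01, 6.04, 6.12 and 5.82, and the SED arrays 6.94, 6.42, 6.50 and 6.68. All active arrays lay under all SED arrays, and SED 1 was the highest. The level was 0.58 lower in EX (EX minus SED -0.58 ± 0.12, SE) and 0.64 lower in PA (-0.64 ± 0.12). These differences were -0.48 and -0.54 without SED 1 and -0.50 and -0.55 without SED 1 and SED 3. With quantile normalization they were -0.68 and -0.72.

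The probe set 1386495_x_at has the number next to that of 1386494_at, and its suffix marks probes that can also match other sequences. It read 6.28, 6.66, 6.03 and 6.33 in EX, 6.27, 6.42, 6.40 and 6.24 in PA, and 6.96, 6.72, 6.53 and 7.05 in SED. PA lay wholly under SED, while EX 2 reached above SED 3. The differences were -0.49 ± 0.15 for EX and -0.48 ± 0.15 for PA, or -0.44 and -0.43 without SED 1 and -0.56 and -0.55 without SED 1 and SED 3. With quantile normalization they were -0.59 and -0.58. As both probe sets may rest on the same sequence record, which was not checked, they are not taken as separate evidence on the gene.

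The Setd1a probe set with the highest mean, 1373292_at, read 9.46, 9.20, 9.21 and 9.01 in EX, 8.95, 9.37, 9.12 and 9.27 in PA, and 9.37, 9.11, 9.42 and 9.06 in SED. All 3 groups covered the same range, with means of 9.22, 9.18 and 9.24 and an SD of 0.18 in each. The differences were -0.02 ± 0.13 in EX and -0.06 ± 0.13 in PA, or 0.02 and -0.02 without SED 1, and both were positive, 0.14 and 0.09, without SED 1 and SED 3. With quantile normalization they were -0.08 and -0.13. EX minus PA was 0.04 (-0.24 to 0.33) in this probe set, -0.01 (-0.32 to 0.31) in 1386495_x_at and 0.06 (-0.21 to 0.32) in 1386494_at, each with an adjusted limma p of 1.00.

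Mterf1 encodes a mitochondrial DNA-binding protein first described as the termination factor that acts after the ribosomal RNA genes of the mitochondrial genome. Its probe set 1387732_at read 8.14, 8.10, 8.10 and 7.97 in EX, 7.99, 8.11, 8.22 and 8.21 in PA, and 7.56, 7.66, 7.76 and 7.69 in SED. The active arrays began 0.21 above the highest SED array, and EX and PA were intermixed. The means were 8.08 ± 0.07, 8.13 ± 0.11 and 7.67 ± 0.08.

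Mterf1 was 0.41 ± 0.09 (SE) higher in EX than in SED, a fold of 1.33, and 0.47 ± 0.09 higher in PA, a fold of 1.38. The differences were 0.37 and 0.43 without SED 1, 0.40 and 0.46 without SED 1 and SED 3, and 0.30 and 0.35 after quantile normalization. EX minus PA was -0.06 (95% interval -0.24 to 0.13, limma, adjusted p = 1.00).

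**Figure D2:**
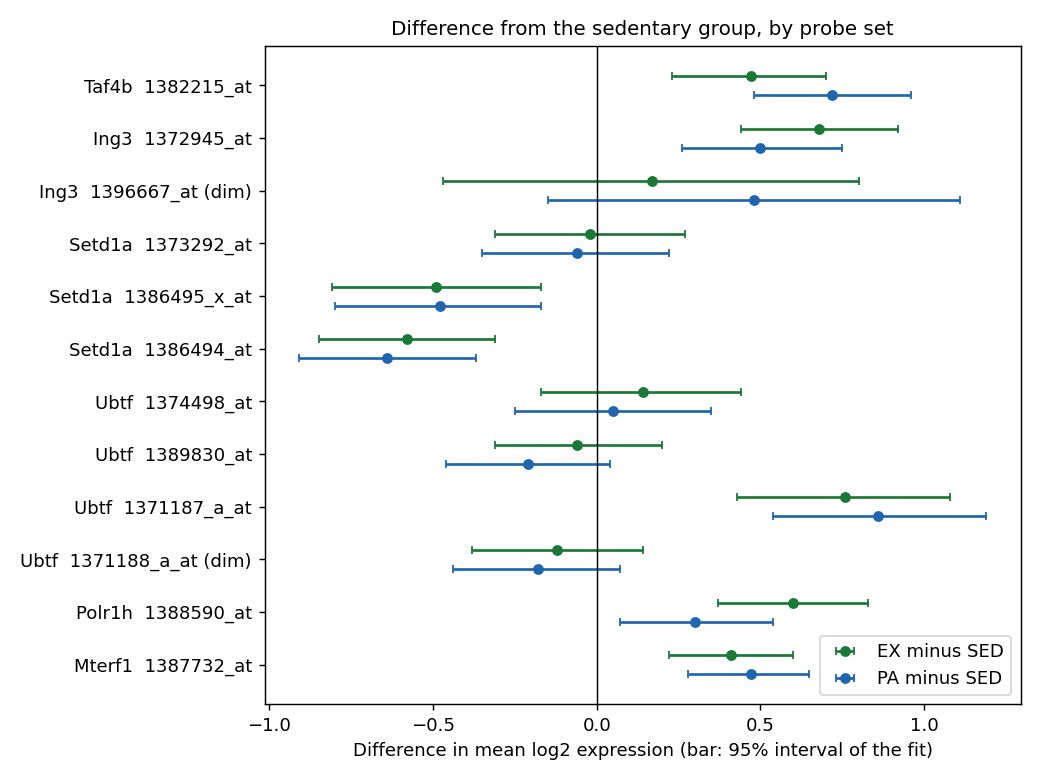
Differences in mean log2 expression from SED (horizontal axis) for the 12 probe sets (vertical axis), EX minus SED in green and PA minus SED in blue, with 95% intervals of the fit over 12 arrays and shared SED arrays. The probe sets of Setd1a run from -0.64 to -0.02 and those of Ubtf from -0.21 to 0.86, while the single tested probe sets of Taf4b, Ing3, Polr1h and Mterf1 lie between 0.30 and 0.72.

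Within the groups the members showed no common pattern. After each group's mean was removed, the correlation over the 12 arrays was 0.10 between Taf4b and Ing3 1372945_at, 0.14 between Taf4b and Polr1h, -0.15 between Ing3 and Polr1h, 0.41 between Ing3 and Mterf1, -0.49 between Taf4b and Mterf1 and -0.80 between Polr1h and Mterf1. The pair of Setd1a probe sets with adjoining numbers had 0.65. Neither followed 1373292_at, with 0.12 for 1386494_at and -0.17 for 1386495_x_at, and in Ubtf the correlation of 1371187_a_at with 1374498_at was -0.26. These are descriptions over arrays that share groups and hybridisation, with few arrays behind each value.

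The genes whose profile over the 12 arrays was most like that of a member, by Pearson correlation of the probe set with the highest mean, are named as a description. For Taf4b they were Abce1 (0.90), Bambi (0.89) and Zwint (0.89), and for Ing3 they were Akap9 (0.95), Cgrrf1 (0.94) and Dnajc14 (0.93). Polr1h was followed by Usp13 (0.92), Bmpr1a (0.91) and Tnik (0.88), and Mterf1 by Dnajc14 (0.91), Sft2d3 (0.91) and Zfand3 (0.90). For the 1373292_at signal of Setd1a they were Id1 (0.90), Sms (0.88) and Il2rg (0.88), and for the 1374498_at signal of Ubtf they were Enpp2 (0.90), Dpf3 (0.84) and Lrch2 (0.80). Without SED 1, the leading gene stayed first for Ing3 (Akap9, 0.92), Polr1h (Usp13, 0.92) and Ubtf (Enpp2, 0.96), and changed to Myrip for Taf4b (0.89), Tns2 for Setd1a (0.94) and Btbd10 for Mterf1 (0.95). Group means were not removed for these correlations, so they include any difference from SED, on which the members were chosen.

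The other genes of the machinery were taken from 9 lists of complexes and factors, with 129 genes measured above the filter. As the lists were chosen with earlier results of these data known, the shares below are a description. At an unadjusted limma p under 0.05, 15 of the 129 were higher in EX than in SED (11.6%, against 6.97% of all genes) and 6 were lower (4.7%, against 5.95%). In PA, 14 were higher (10.9%, against 7.33%) and 2 were lower (1.6%, against 5.14%). Their median difference was 0.05 in EX and 0.06 in PA, beside 0.03 and 0.05 over all genes, and none passed the adjusted p. After quantile normalization the higher counts were 6 (4.7%, against 3.84%) and 8 (6.2%, against 4.04%), and without SED 1 and SED 3 they were 9 (7.0%, against 6.38%) and 8 (6.2%, against 5.68%). The lower counts were 8 (6.2%, against 8.60%) and 5 (3.9%, against 7.28%) after quantile normalization. Between EX and PA, 0 of the 129 were higher in EX (against 0.937% of all genes) and 3 were lower, Polr1c, Gtf2e1 and Dmap1 (2.3%, against 1.59%). Without SED 1 and SED 3 the lower count was 9 (7.0%, against 3.13%). For the counts of higher and lower genes in each list that follow, the baseline is that 57.0% of all genes were higher in EX than in SED and 59.9% were higher in PA, whatever their p.

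Of 16 RNA polymerase I genes besides Polr1h and Ubtf, 6 were higher and 10 lower in EX than in SED, with a median of -0.03, and 10 were higher and 6 lower in PA, with a median of 0.06. Taf1b, a subunit of the promoter selectivity factor SL1, was 0.70 ± 0.20 (SE) higher in EX and 0.58 ± 0.20 in PA, with adjusted limma p-values of 0.148 and 0.229, and was 0.51 and 0.39 higher without SED 1. Polr1f, a polymerase I subunit, was 1.13 ± 0.38 higher in EX and 1.27 ± 0.38 in PA. Its SED arrays ran from 4.47 to 6.73, and without SED 1 the differences fell to 0.65 and 0.79. Its other probe sets gave 0.56 and 0.52, and 0.13 and 0.37. Polr1c, a subunit shared by polymerases I and III, was lower in EX than in PA (-0.48 ± 0.15, unadjusted p = 0.00806, limma, adjusted p = 1.00), and Polr1g was 0.28 under SED in EX (-0.28 ± 0.13) and 0.25 under it in PA (-0.25 ± 0.13).

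The RNA polymerase II subunits were mixed, with 9 of 13 higher in EX, 9 of 13 higher in PA and medians of 0.10 and 0.05. The genes counted as higher were not all the same in EX and PA. Polr2i was lower in EX (-0.55 ± 0.17, SE; limma, adjusted p = 0.181) and in PA (-0.30 ± 0.17), or -0.36 and -0.12 without SED 1. Polr2f was lower in both (-0.28 ± 0.11 each, or -0.20 and -0.19 without SED 1), although a second probe set of Polr2f gave 0.16 and 0.23. Polr2h was 0.41 ± 0.17 higher in EX, and Polr2g was 0.30 ± 0.15 higher in EX and 0.34 ± 0.15 in PA. Of 17 RNA polymerase III genes, 9 were higher in EX and 10 in PA, with medians of 0.01 and 0.03. The TFIIIC subunits Gtf3c2 and Gtf3c6 were 0.48 ± 0.14 and 0.44 ± 0.15 higher in EX, and 0.45 ± 0.14 and 0.42 ± 0.15 higher in PA. Gtf3c3 was 0.41 ± 0.18 higher in EX and 0.23 ± 0.18 in PA, or 0.20 and 0.03 without SED 1. Gtf3a, the zinc-finger factor of the 5S ribosomal RNA gene, was lower by the same amount in both groups (-0.41 ± 0.12).

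TFIID besides Taf4b had 10 of 13 genes higher in EX and 11 in PA, with medians of 0.10 and 0.07. The scaffold subunit Taf5 was 0.78 ± 0.31 (SE) higher in EX and 1.12 ± 0.31 in PA (limma, adjusted p = 0.187), and Taf9b was 0.46 ± 0.17 higher in PA. Taf1, the largest subunit, and Taf9 differed by 0.25 and 0.22 in EX and by 0.23 and 0.20 in PA, but without SED 1 by 0.11 and 0.09 in EX and by 0.08 each in PA. Of the other general factors of RNA polymerase II, 10 of 16 were higher in EX and 8 in PA, with medians of 0.07 and 0.00. Gtf2e1, a subunit of TFIIE, was 0.88 ± 0.19 higher in PA than in SED (limma, adjusted p = 0.164) and lower in EX than in PA (-0.68 ± 0.19, adjusted p = 1.00). Gtf2f2, a subunit of TFIIF, was 0.71 ± 0.29 higher in EX, or 0.35 without SED 1, and the TFIIH genes Ccnh and Gtf2h1 were 0.28 ± 0.12 and 0.31 ± 0.14 higher in EX, or 0.17 and 0.22 without SED 1.

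Ing3 stood beside a mixed set of partners. Of 20 genes of NuA4/TIP60 and the ING family, 9 were higher and 11 lower in each active group, with medians of -0.09 in EX and -0.07 in PA. Dmap1, a core NuA4 subunit, was lower in EX than in SED (-0.28 ± 0.12) and than in PA (-0.31 ± 0.12, unadjusted p = 0.0228), while Ruvbl1, an ATPase of the complex, was 0.43 ± 0.19 higher in EX, or 0.30 without SED 1. Epc1 and Trrap differed from SED by 0.15 and -0.21 in EX, and Epc1 by 0.08 without SED 1. Of 16 other genes of the histone H3 lysine 4 methyltransferase complexes, 10 were higher in EX and 11 in PA. Dpy30, a subunit shared by these complexes, was 0.47 ± 0.21 higher in EX and 0.45 ± 0.21 in PA, or 0.23 and 0.20 without SED 1. Bod1l1 was 0.46 ± 0.19 higher in EX and 0.34 ± 0.19 in PA. Ncoa6 was 0.53 ± 0.23 higher in PA, or 0.26 without SED 1. Cxxc1, which recruits the Setd1a complex to CpG islands, differed by -0.23 ± 0.15 in EX, or -0.15 without SED 1.

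The genes of mitochondrial transcription and DNA maintenance besides Mterf1 were higher in EX in 11 of 16 and in PA in 12 of 16, with medians of 0.06 and 0.17. Of these, 2 in EX and 4 in PA were higher at the unadjusted p, beside 6.97% and 7.33% of all genes. At the same p, 3 of 17 RNA polymerase III genes were higher in EX and 2 in PA. The other general factors of RNA polymerase II had 3 of 16 higher in EX and 1 in PA. Mterf3, of the same protein family as Mterf1, was 0.45 ± 0.13 (SE) higher in EX and 0.48 ± 0.13 in PA, with adjusted limma p-values of 0.161 and 0.187, and 0.31 and 0.35 without SED 1. Mterf4, which guides a ribosomal RNA methyltransferase, was 0.46 ± 0.18 and 0.41 ± 0.18 higher, or 0.27 and 0.23 without SED 1. Its unadjusted limma p was 0.0235 in EX and 0.0385 in PA, and 0.0541 and 0.103 without SED 1. The mitochondrial DNA packaging factor Tfam was 0.25 ± 0.09 higher in PA and 0.19 ± 0.09 in EX, and the elongation factor Tefm was 0.46 ± 0.18 higher in PA, or 0.26 without SED 1. Of 28 listed mitochondrially encoded transcripts, 2 were on the array. These, COX1 and COX2, had means of 13.25 and 13.09 in EX, and 13.27 and 13.11 in both PA and SED. Their arrays overlapped, and whether signals this bright would show a difference was not tested.

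**Figure D3:**
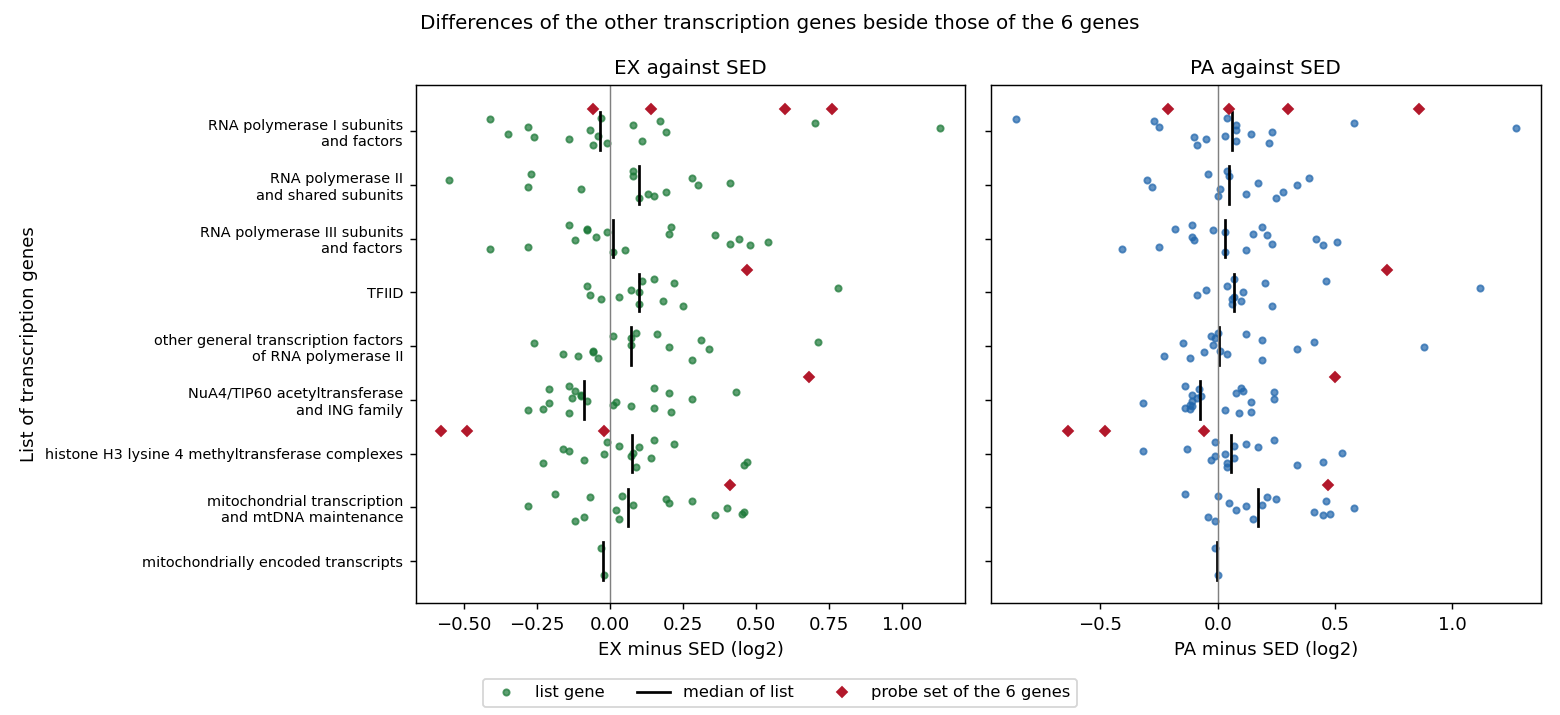
Difference from SED (horizontal axes, log2; EX on the left, PA on the right) of each measured gene in 9 lists of transcription genes (vertical axis, points), with a bar at the list's median and diamonds for the tested probe sets of the 6 genes above their list. The medians lie between -0.09 and 0.17, while the 10 probe sets of the 6 genes, which were chosen on these contrasts, run from -0.64 to 0.86.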

How the data were processed

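Left-ventricle RNA of 12 arrays (EX, PA and SED, grouped by title and description) was measured. The authors deposited 1 table of log2 values, used as given. MAS5 and RMA are both listed in the submitters' processing notes, and which of them produced the table is not given, so their background correction and exact scale are unknown. Of 31099 rows, 57 control rows were left out. Of the others, 20826 had 1 gene symbol, 436 several and 9780 none listed. No column of per-sample values was left unused (0).

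The 60% of probe sets with the highest mean signal entered limma 3.58.1 (R 4.3.3), which fitted 3 group means over all 12 arrays with two-sided moderated tests, Benjamini-Hochberg adjustment over 18626 probe sets and a threshold of 0.05. The steps were tested on simulated data. For counts of genes, the brightest tested probe set stood for its gene. Named were all probe sets of the 6 genes, up to 4 genes per list with the smallest p of the F test, and the 3 genes most correlated with each member. The 6 genes and the lists were chosen with earlier results of these data known. Same-numbered arrays of different groups deviated together with correlations from -0.208 to 0.134, and differently numbered ones with -0.214 to 0.224. No pairing by number was seen, and whether same-numbered arrays were handled together was not tested.

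The alternatives were quantile normalization, centred medians, other filters, a fit of the compared groups only, array weights, a replicate block, averaged probe sets and each array left out; leaving out SED 1 and SED 3 together was chosen after seeing the data. Promoter sequences and coordinates are RefSeq's on GRCr8, with all 6 genes matched by symbol. Arrays carry no read depth, and their number limits the precision.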

Additional observations from a re-analysis of the deposited data

Results flagged for a closer look

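Of 36 group values checked for a single array far from the other 3, 1 stood out: in the dim Ubtf probe set 1371188_a_at, PA 3 read 4.96, where the other PA arrays read 4.58, 4.57 and 4.62. Chance alone would mark about 1 group in 20.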

How the results depend on the processing

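The counts over the whole table were 0 past the adjusted threshold, and most alternatives left them there. Array weights gave 8 probe sets for EX against SED (1 of them Ing3 1372945_at, which was chosen on this contrast, so that nothing is read from it), 1 for PA against SED, 1 for EX against PA and 6 for the F test. Leaving out SED 1 and SED 3 together, chosen after seeing the data, gave 2 for EX against SED and 1 for the F test. Leaving out 1 array gave 0 to 2 for each of these, with 2 in both cases without SED 1. The replicate block gave 0 in all comparisons.

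The counts of list genes at an unadjusted p moved more. Higher in EX than in SED were 15, and 9 without SED 1 and SED 3, 8 with array weights, 6 after quantile normalization, 8 with the compared groups only and 7 to 19 with 1 array left out. Lower in EX were 6, and 3 with the compared groups only and 3 to 6 with 1 array left out. Higher in PA were 14, and 8 without SED 1 and SED 3, 8 after quantile normalization, 9 with the compared groups only and 11 to 16 with 1 array left out. Lower in PA were 2, and 1 without SED 1 and SED 3, 4 with array weights, 1 with averaged probe sets, 5 after quantile normalization and 1 to 5 with 1 array left out. Higher in EX than in PA were 0, and 2 without SED 1 and SED 3, 2 with array weights, 1 with no filter, quantile normalization, the replicate block, the stricter filter or the compared groups only, and 0 to 1 with 1 array left out. Lower in EX than in PA were 3, and 9 without SED 1 and SED 3, 8 with array weights, 8 with the compared groups only and 2 to 6 with 1 array left out. The causes were not tested.

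The differences from SED of Taf4b, Ing3 1372945_at, Polr1h, Mterf1, Ubtf 1371187_a_at, Setd1a 1386494_at and Setd1a 1386495_x_at kept their sign under every alternative run, while both differences of Setd1a 1373292_at, the PA difference of Ubtf 1374498_at and the EX difference of Ubtf 1389830_at changed sign under at least 1. Mterf1 went to 0.30 and 0.35 after quantile normalization. With 1 array left out, EX minus PA changed sign in Setd1a 1373292_at (-0.04 to 0.11) and 1386495_x_at (-0.12 to 0.09), and ran from 0.00 to 0.10 in 1386494_at. No pairing by replicate number was seen, and the block gave 10 list genes higher and 5 lower in EX than in SED. With 4 pooled arrays per group, small differences between EX and PA could not be resolved.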
